A study of Rattus norvegicus with 8 samples.

Results

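Genes that switch cells between carbohydrate and fat as fuel were examined in rat Achilles tendon immediately after a treadmill run. They were the 10 genes Ppargc1a, Pdk4, Pdk2, Angptl4, Ucp2, Ucp3, Cpt1a, Cpt1b, Acadm and Irs2, taken by gene symbol from a table of 15590 genes, and all 10 were tested. The 8 libraries came from the right Achilles tendons of male wild-type Sprague-Dawley rats aged 8 to 10 weeks. The 0 h p.r. (post-running) group was 4 rats killed directly after 1 h of uphill running, during which the animals were kept moving by air flow and a mild electric stimulus. The NC (naive control) group was 4 rats that kept their normal activity and did not run. Food was freely available in both groups, so a fast was not part of the design. The labels number the libraries but do not name the animals, and the p-values measure the spread between these libraries.

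Working muscle and fasting tissues burn more fatty acid and spare glucose. Circulating triglyceride is split by lipoprotein lipase, which ANGPTL4 inhibits. Fatty acids enter mitochondria through carnitine palmitoyltransferase 1, made as a widely expressed form (Cpt1a) and a muscle form (Cpt1b), and are shortened by enzymes such as ACADM. The pyruvate dehydrogenase kinases PDK2 and PDK4 close the entry of glucose carbon into the citric acid cycle. PGC-1alpha, encoded by Ppargc1a, is a coactivator that raises mitochondrial genes and is known for its induction in exercised skeletal muscle. IRS2 passes the insulin signal from its receptor to PI3 kinase, and its gene is raised in fasted liver. UCP2 and UCP3 are carriers of the inner mitochondrial membrane.

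Recovered reads in the listed genes ranged from 11350560 to 17897056 per library. Tendon cell markers were present throughout, with a mean of log2(FPKM + 0.5) over 10 genes of 7.20 to 8.15 in NC and 7.43 to 8.28 in 0 h p.r., where FPKM counts fragments relative to transcript length and library size. Means are given with the SD over 4 libraries per group (n = 4). RNA of other tissues was present and uneven. The summed FPKM of 15 skeletal muscle markers lay between 6482 and 11008 in NC. In 0 h p.r. it was 46796, 7956, 20905 and 1443 in replicates 1 to 4. Post-run replicate 3 was high in the fast-fibre myosin Myh1 (630 FPKM, 36.2 to 203 in NC). It held little of the slow-fibre myosin Myh7 (0.514 FPKM, 61.1 to 329 in NC). Its mean of log2(FPKM + 0.5) over the 15 markers, 7.94, therefore lay within the 7.63 to 8.71 of NC despite its higher sum. Of these 15 genes, 0 were called in limma, 3 had an unadjusted p under 0.05 (22.6% of all tested genes did) and 0 were called by limma's voom on recovered reads, and none was at 0 in any library. The summed FPKM of 11 adipocyte markers was 3090 to 6169 in NC and 1035 to 2250 in 0 h p.r., without overlap, and 6 of the 11 were called lower. In such bulk samples, fewer cells of a type and less RNA per cell cannot be told apart.

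Promoter sequences bear on how members are switched on, and 8 of the 10 members had an entry in RefSeq (build GRCr8), while Irs2 and Cpt1b had none. The 250 bases before the annotated start were searched on both strands. The cyclic AMP response element TGACGTCA, the site of CREB-family factors, was found in 2 members, Ppargc1a and Acadm, and in 1.59% of all 33469 promoters. The nuclear receptor half-site AGGTCA was found in Ucp3 only among the members and in 14.1% of all promoters. The forkhead site TGTTTAC was found in no member and in 3.21% of all promoters. A pair of AGGTCA half-sites 1 base apart, a PPAR-type element, was in no member and in 0.0508% of promoters, and the full glucocorticoid palindrome was in no member and in 0.012%. A match describes letters only, and no match says only that these letters are not in this window. Shown 5′ to 3′ on the gene's strand are the promoters with a match and that of Ucp2, which held none of these motifs and which had the lowest adjusted p of the members that were lower after running. They are Ppargc1a (chr14:63634058-63634307, plus strand), Acadm (chr2:245542865-245543114, minus strand), Ucp3 (chr1:164227660-164227909, plus strand) and Ucp2 (chr1:164251123-164251372, plus strand), with motif matches in capitals.
Ppargc1a: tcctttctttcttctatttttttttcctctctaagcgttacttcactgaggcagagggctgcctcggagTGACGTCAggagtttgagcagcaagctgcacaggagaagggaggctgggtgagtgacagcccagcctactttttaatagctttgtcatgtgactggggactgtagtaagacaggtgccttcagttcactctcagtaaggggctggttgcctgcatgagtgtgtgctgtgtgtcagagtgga
Acadm: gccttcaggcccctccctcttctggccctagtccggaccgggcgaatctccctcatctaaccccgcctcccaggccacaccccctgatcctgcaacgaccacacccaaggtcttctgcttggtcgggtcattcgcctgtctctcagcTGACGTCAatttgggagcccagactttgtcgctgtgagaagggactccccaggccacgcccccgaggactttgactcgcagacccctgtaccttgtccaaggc
Ucp3: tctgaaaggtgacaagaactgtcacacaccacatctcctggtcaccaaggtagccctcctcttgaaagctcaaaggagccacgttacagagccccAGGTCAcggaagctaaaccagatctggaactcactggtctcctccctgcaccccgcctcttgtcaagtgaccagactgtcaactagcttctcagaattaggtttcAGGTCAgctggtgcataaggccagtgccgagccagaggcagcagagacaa
Ucp2: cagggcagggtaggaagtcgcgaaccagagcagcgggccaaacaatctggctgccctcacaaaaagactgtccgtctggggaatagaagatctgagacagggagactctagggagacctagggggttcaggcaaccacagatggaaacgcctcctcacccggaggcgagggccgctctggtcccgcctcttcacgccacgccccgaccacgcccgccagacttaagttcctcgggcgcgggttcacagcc
The element lay 181 to 174 bases before the start in Ppargc1a and 103 to 96 bases before it in Acadm. The AGGTCA copies of Ucp3 lay 155 to 150 and 50 to 45 bases before its start. Ucp3 and Ucp2 are neighbours on chromosome 1 with starts 23463 bases apart on the same strand.

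The comparison asked which of the fuel-switch genes differ between tendons just after running and tendons at rest. Of the 10 members, Irs2 was the 1 that passed both thresholds, namely an adjusted p (limma, Benjamini-Hochberg) below 0.05 and a fold change of 2 or more, and it was higher after running. Over all 13863 tested genes, 2.70% passed both, with 1.80% higher and 0.894% lower. Ucp2 was lower in every post-run library, with an adjusted p under 0.05 but a fold of less than 2. Counted by adjusted p alone, 2 of 10 members passed, against 5.72% of all tested genes. The groups did not overlap for these same 2 members, against 15.6% of all tested genes. The median log2 fold change of the 10 members was -0.12, beside -0.0014 over all tested genes, and 7 members were lower and 3 higher. The other 8 members did not pass, and their intervals are given with their values.

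**Figure D1:**
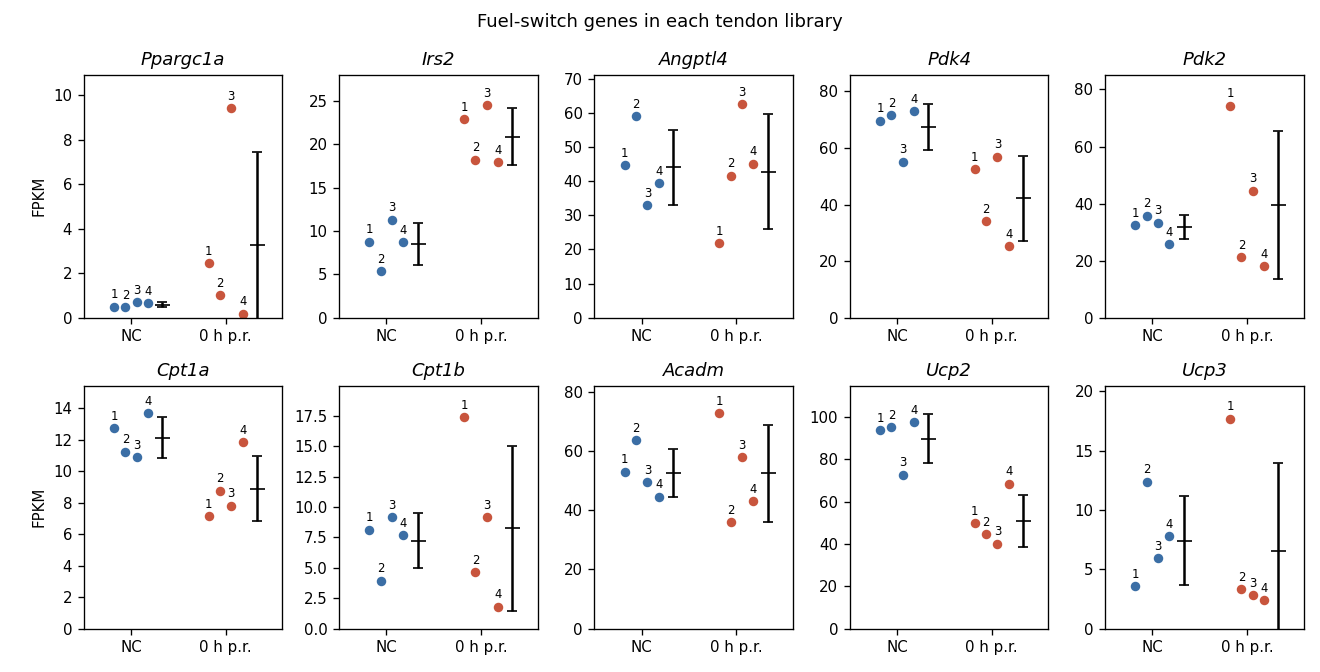
FPKM of each of the 10 genes in the 4 NC (blue) and 4 0 h p.r. (red) libraries, numbered by replicate, with the group mean and SD in black (bars are cut at 0). The groups were apart for Irs2 and Ucp2, and the post-run libraries spread far more than the controls for Ppargc1a, Pdk2, Cpt1b and Ucp3.

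Irs2 (ENSRNOG00000023509), the insulin receptor substrate known from fasted liver, rose after running. In NC it was at 8.76, 5.37, 11.3 and 8.68 FPKM in replicates 1 to 4. In 0 h p.r. it was at 22.9, 18.2, 24.5 and 17.9 FPKM. The lowest post-run library was above the highest control, and the post-run libraries lay within 1.37-fold of each other. The means were 8.53 ± 2.43 and 20.9 ± 3.31 FPKM. The log2 fold change was 1.27 (SE 0.21, 95% confidence interval 0.79 to 1.75), a 2.42-fold rise (limma, adjusted p = 0.0126). Each library held at least 346 reads of Irs2.

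The Irs2 call held without each library in turn, with adjusted p between 0.0139 and 0.0461. It was lost when every library was scaled to an equal FPKM total (log2 fold change 1.27, adjusted p = 0.0877). Across the spread in muscle RNA, Irs2 was at 22.9 FPKM in the library richest in muscle markers and at 17.9 FPKM in the poorest. The adipocyte marker mean was lower in every post-run library, as described above, and with that mean as a covariate, chosen after seeing the data, the log2 fold change of Irs2 was 0.96 (95% confidence interval -0.02 to 1.95, adjusted p = 0.715). That covariate separates the groups by itself, and in limma 0 of the 13863 genes were called with it, 965 having an unadjusted p under 0.05. The genes whose log2 values followed Irs2 most closely over the 8 libraries were Thnsl1, Runx1 and Heca (Pearson r = 0.98 for each), a description over libraries that include the group difference.

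Other genes of the insulin and fasting response were read from a list of 18, of which 16 were tested and 2 were called, both higher. Sik1, a salt-inducible kinase that restrains CREB coactivators, was at 3.14 to 8.38 FPKM in NC and 37.5 to 52.2 FPKM in 0 h p.r. Its log2 fold change was 2.67 (SE 0.28), with an adjusted p of 0.00181. Trib1, a pseudokinase of the Tribbles family, was at 7.57 ± 2.43 FPKM in NC and 22.6 ± 3.89 FPKM in 0 h p.r., with a log2 fold change of 1.55 (SE 0.23) and an adjusted p of 0.00797. Both genes stayed past the thresholds without any single library. The median log2 fold change of the 16 genes was 0.14, with 11 higher and 5 lower. Pck1, the gluconeogenic enzyme also used by fat cells and named after its values were seen, had the lowest value on the list, at 65.9 to 282 FPKM in NC and 7.58 to 81.0 FPKM in 0 h p.r. (log2 fold change -1.92, adjusted p = 0.134). These called genes and Irs2 were all higher in every post-run library than in any control.

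Ppargc1a (ENSRNOG00000004473), the coactivator whose promoter with the cyclic AMP element is printed above, was the member with the lowest level and the widest spread after running. In NC it was at 0.493, 0.479, 0.697 and 0.663 FPKM in replicates 1 to 4, from 13 to 28 reads. In 0 h p.r. it was at 2.45, 1.03, 9.41 and 0.182 FPKM, from 89, 51, 330 and 9 reads. Post-run replicates 1, 2 and 3 were above every control and replicate 4 was below every control. The post-run libraries differed 51.7-fold among themselves and the controls 1.45-fold. The mean difference, a log2 fold change of 1.12 (SE 0.68, 95% confidence interval -0.41 to 2.65), did not pass in limma (adjusted p = 0.378).

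This fold change depended on single libraries. When post-run replicate 4 was left out it became 1.72 on the log2 scale (adjusted p = 0.0875), and when post-run replicate 3 was left out it became 0.43. Replicate 4 was the library poorest in muscle markers. Replicate 3, with the highest Ppargc1a, had a summed muscle marker FPKM of 20905, above every control (at most 11008). That sum was below the 46796 of replicate 1, where Ppargc1a was at 2.45 FPKM. With the muscle marker mean as a covariate the log2 fold change of Ppargc1a was 1.24 (95% confidence interval -0.14 to 2.62) and did not pass (adjusted p = 0.239). That mean was 7.94 in replicate 3, within the 7.63 to 8.71 of the controls, so this covariate does not register the higher sum of that library.

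Regulators related to Ppargc1a, the PPARs, estrogen-related receptors and their coregulators, were read from a list of 20 genes. Of the 18 tested, 1 was called, Pprc1, a PGC-1 family coactivator expressed in many tissues. Pprc1 was at 5.65 ± 1.61 FPKM in NC and 13.9 ± 3.57 FPKM in 0 h p.r., with a log2 fold change of 1.23 (SE 0.25) and an adjusted p of 0.0288. Its groups did not overlap, at 3.51 to 7.42 FPKM in NC and 8.75 to 16.5 FPKM after running. Removing 1 library at a time ended the call in 5 of 8 fits (those without NC replicates 1 and 3 and without post-run replicates 1 to 3), the adjusted p rising to 0.0983 without post-run replicate 2. Scaling libraries to an equal FPKM total also ended it (0.132), as did a replicate block (0.1001). Esrrg, an estrogen-related receptor of oxidative tissues, had the next largest change on this list, and did not pass (log2 fold change -0.87, adjusted p = 0.207), although it did with array weights (-1.23, adjusted p = 0.0184). The median of the 18 genes was -0.09.

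**Figure D2:**
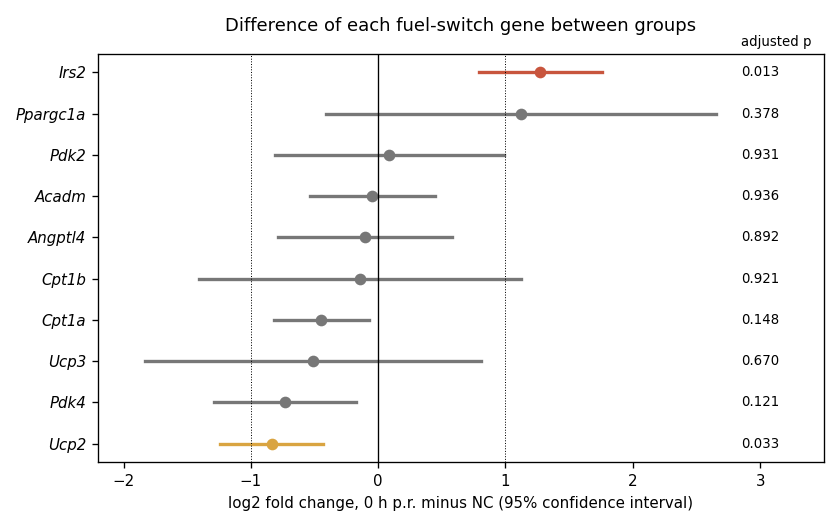
Log2 fold change of each of the 10 genes (0 h p.r. minus NC, on log2(FPKM + 0.5)) with its 95% confidence interval and limma adjusted p. Irs2 (red) passed both thresholds, Ucp2 (orange) passed the adjusted p only, and dotted lines mark a fold of 2.

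Pdk4, the pyruvate dehydrogenase kinase known for its rise in fasting and endurance exercise, was not higher after running. It was at 69.6, 71.6, 55.2 and 72.9 FPKM in NC and at 52.6, 34.2, 56.9 and 25.3 FPKM in 0 h p.r. Post-run replicate 3 lay just above the lowest control, and the other post-run libraries lay below every control. Its log2 fold change was -0.73 (SE 0.25, 95% confidence interval -1.29 to -0.17), with a limma adjusted p of 0.121 (unadjusted 0.016). This interval lies below 0, although the adjusted p does not pass.

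Pdk2, the kinase form that most tissues express, was at 32.4, 35.8, 33.3 and 25.9 FPKM in NC. In 0 h p.r. it was at 74.4, 21.2, 44.5 and 18.1 FPKM. The post-run libraries lay on both sides of the controls and spread 4.10-fold, against 1.38-fold in NC. Between groups the log2 fold change was 0.09 (95% confidence interval -0.81 to 0.99, adjusted p = 0.931), and it turned negative in some fits, to -0.29 when post-run replicate 1 was left out. Within a library the log2 ratio of Pdk4 to Pdk2 was 1.09, 0.99, 0.72 and 1.48 in NC. After running it was -0.50, 0.68, 0.35 and 0.47. Every post-run ratio was below every control ratio, by 0.82 on average. This gave the smallest two-sided p of the exact permutation test over 70 assignments (p = 0.0286) and 0.0857 after adjustment over the 3 ratios tested. The lowest ratio was that of post-run replicate 1, the library richest in muscle markers, where Pdk2 was highest. The part of muscle RNA in these ratios was not tested.

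Around the kinases, 10 further genes of the pyruvate dehydrogenase complex, its kinases and its phosphatases were tested in limma and 0 were called, with 0 at an unadjusted p under 0.05 and 0 called by voom. Their log2 fold changes ran from -0.17 to 0.25. The largest were those of Pdpr, a regulator of the phosphatase (0.25, 95% confidence interval -0.40 to 0.90), and Pdk3, another kinase form (0.23, 95% confidence interval -0.17 to 0.62).

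Angptl4, the secreted inhibitor of lipoprotein lipase, was at 44.6, 59.0, 33.0 and 39.5 FPKM in NC and at 21.8, 41.6, 62.6 and 45.1 FPKM in 0 h p.r. Post-run replicate 1 lay below every control, replicate 3 above every control, and the others among them. Its log2 fold change was -0.10 (95% confidence interval -0.79 to 0.58, adjusted p = 0.892). Angptl4 was lowest in the library richest in muscle markers, 0 h p.r. replicate 1.

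The lipase itself and its anchor fell. Of 7 listed genes of lipoprotein lipase and its control, 5 were tested and 2 were called, both lower. Lpl was at 436, 231, 224 and 188 FPKM in NC and at 92.4, 105, 110 and 148 FPKM in 0 h p.r. Every post-run library lay below every control (log2 fold change -1.18, SE 0.26, adjusted p = 0.037). Gpihbp1, the endothelial protein that holds the lipase at the capillary wall, was at 27.3 to 54.1 FPKM in NC and 8.35 to 12.3 FPKM in 0 h p.r., with a log2 fold change of -1.80 (SE 0.23) and an adjusted p of 0.00418.

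The call of Gpihbp1 held without each library in turn. That of Lpl was lost without any one of 6 libraries, NC replicates 1 to 3 and post-run replicates 1 to 3 (adjusted p up to 0.111, without post-run replicate 2). The call of Lpl was also lost at an equal FPKM total (0.130) and with a replicate block (0.114). The adipocyte marker sums were lower in the same libraries, as given above. Endothelial markers overlapped between the groups, with summed FPKM of 389 to 439 in NC and 323 to 439 after running, and in limma 0 of 6 were called, with 1 at an unadjusted p under 0.05 and 0 by voom. With the adipocyte marker mean as a covariate, the log2 fold change was 0.02 for Lpl and -0.99 for Gpihbp1, and neither passed.

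**Figure D3:**
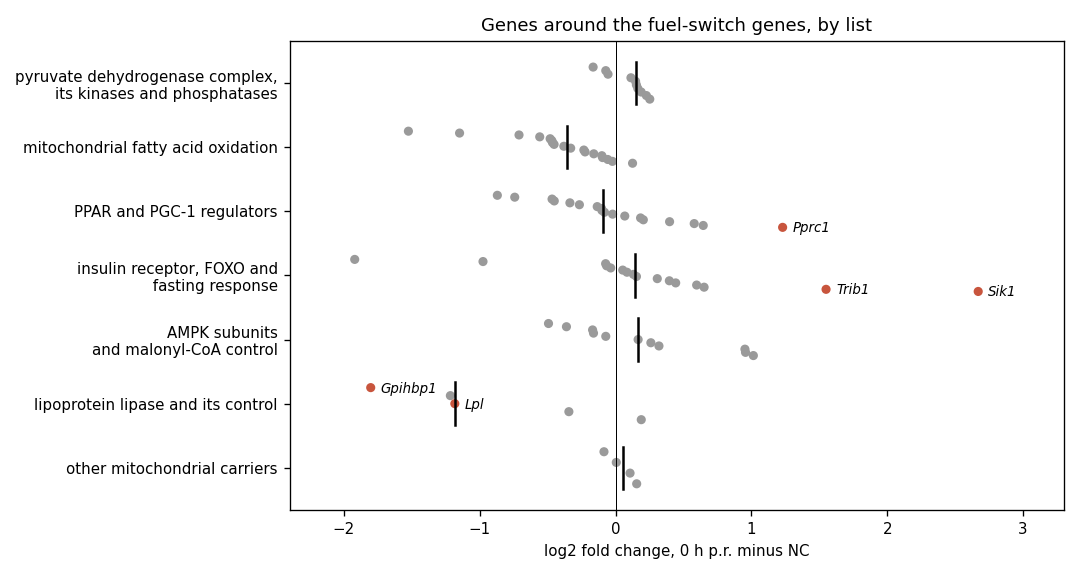
Log2 fold change (0 h p.r. minus NC) of each tested gene of the 7 lists around the fuel-switch genes, with each list's median as a black bar. The 5 genes past both thresholds are red and named, and most points of fatty acid oxidation lie left of 0.

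Cpt1a, the widely expressed entry enzyme for fatty acids, was at 12.7, 11.2, 10.9 and 13.7 FPKM in NC and at 7.14, 8.75, 7.81 and 11.8 FPKM in 0 h p.r. Post-run replicate 4 lay among the controls and the other 3 lay below them. In limma the log2 fold change was -0.45 (SE 0.16, 95% confidence interval -0.82 to -0.07) and the adjusted p was 0.148. The adjusted p was 0.0372 when post-run replicate 4 was left out and 0.0389 with the muscle marker mean as a covariate. Among the post-run libraries, Cpt1a was highest in replicate 4, which also had the highest adipocyte marker sum (2250 FPKM), and lowest in replicate 1, which had the lowest (1035 FPKM). Replicates 2 and 3 were in the reverse order, with sums of 1490 and 1842 FPKM. Among the controls, Cpt1a was highest in replicate 4, which had the lowest sum (3090 FPKM). With the adipocyte marker mean as a covariate, which separates the groups by itself, the log2 fold change of Cpt1a was 0.02. Its 95% confidence interval was -0.65 to 0.70 (limma, adjusted p = 0.998). The part of adipocyte RNA in the Cpt1a values was not tested within a group.

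Cpt1b, the muscle form, was at 8.13, 3.95, 9.15 and 7.71 FPKM in NC and at 17.4, 4.65, 9.15 and 1.80 FPKM in 0 h p.r. Its extremes were post-run replicates 1 and 4, the libraries richest and poorest in muscle markers. The log2 fold change was -0.14 (95% confidence interval from -1.41 to 1.12, adjusted p = 0.921), an interval wide enough to hold more than a 2-fold change either way. Acadm, the medium-chain acyl-CoA dehydrogenase whose promoter also holds the cyclic AMP element, was at 53.1, 63.7, 49.5 and 44.7 FPKM in NC and at 72.9, 36.1, 58.1 and 43.1 FPKM in 0 h p.r. Post-run replicate 1 lay above every control and replicates 2 and 4 below every control. The interval of its log2 fold change, -0.54 to 0.45 around -0.05, lay within a 2-fold change (adjusted p = 0.936). The log2 ratio of Cpt1b to Cpt1a averaged -0.76 ± 0.48 at rest, against -0.46 ± 1.56 after running, and did not differ beyond this spread (exact permutation p = 0.771, adjusted 0.857).

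Further genes of mitochondrial fatty acid oxidation leaned to lower values without any call. Of 18 tested in limma, 17 had a negative log2 fold change and 1 a positive one, with a median of -0.36, 0 called, 8 at an unadjusted p under 0.05 (22.6% over all tested genes) and 0 called by voom. Acsl1, which activates long-chain fatty acids and is abundant in fat tissue, was at 55.0 ± 33.8 FPKM in NC and 21.8 ± 1.07 FPKM in 0 h p.r. (log2 fold change -1.15, adjusted p = 0.0678), with no overlap between the groups. It passed both thresholds with array weights (-1.32, adjusted p = 0.0326), and without NC replicate 1 it was -0.78 with an adjusted p of 0.032. The adipocyte marker sum moved the same way as these genes. With the adipocyte marker mean as a covariate, which separates the groups by itself, the log2 fold change of Acsl1 was -0.05 (limma, adjusted p = 0.997). The part of adipocyte RNA in the values of these genes was not tested within a group.

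AMP-activated kinase, the sensor that lowers malonyl-CoA and so frees CPT1, was read through 11 genes of its subunits and of malonyl-CoA control. In limma 0 of 11 were called, with 2 at an unadjusted p under 0.05 and 0 by voom. The largest changes were those of the muscle-type subunits Prkag3 (log2 fold change 1.01, 95% confidence interval -0.98 to 3.01, adjusted p = 0.559) and Prkaa2 (0.96, 95% confidence interval -0.73 to 2.64, adjusted p = 0.506). Both means were drawn from widely spread post-run values, 7.30 ± 6.34 FPKM for Prkag3 and 9.64 ± 7.89 FPKM for Prkaa2. Leaving out 1 library moved the log2 fold change between 0.46 and 1.89 for Prkag3 and between 0.46 and 1.74 for Prkaa2, which passed both thresholds without post-run replicate 4 (adjusted p = 0.048).

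Ucp2 (ENSRNOG00000017854), the uncoupling protein of many cell types including macrophages and adipocytes, was lower after running. It was at 93.9, 95.1, 72.8 and 97.6 FPKM in NC and at 49.9, 44.7, 40.1 and 68.5 FPKM in 0 h p.r. The highest post-run library was below the lowest control. The means were 89.9 ± 11.5 and 50.8 ± 12.4 FPKM. The log2 fold change was -0.84 (SE 0.18, 95% confidence interval -1.24 to -0.43), a fold of 1.79 (limma, adjusted p = 0.0327). Removing 1 library at a time moved this p between 0.00762 and 0.106, the latter without post-run replicate 2, and it stayed under 0.05 only where NC replicate 3 or post-run replicate 4 was the one removed. It was 0.146 with libraries at an equal FPKM total and 0.0527 with a replicate block.

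Markers of cells that carry Ucp2 were set beside it. The summed FPKM of 8 macrophage markers was 352 to 719 in NC and 433 to 1029 in 0 h p.r., with overlap, and in limma 0 of 8 were called, with 1 at an unadjusted p under 0.05 and 0 by voom. Adipocyte markers were lower in every post-run library, and the post-run library with the highest adipocyte sum, replicate 4, also had the highest Ucp2. Other libraries did not follow this order. NC replicate 4 had the lowest adipocyte sum of the controls (3090 FPKM) and the highest Ucp2 (97.6 FPKM). Post-run replicate 1 had the lowest sum (1035 FPKM), and its Ucp2 (49.9 FPKM) was above that of replicates 2 and 3. With the adipocyte marker mean as a covariate, which separates the groups by itself, the log2 fold change of Ucp2 was -0.44. Its 95% confidence interval was -1.23 to 0.35 (limma, adjusted p = 0.866). With the muscle marker mean as a covariate the adjusted p was 0.0171. The part of adipocyte RNA in the Ucp2 values was not tested within a group.

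Ucp3, the form of skeletal muscle and brown fat, was at 3.56, 12.4, 5.94 and 7.79 FPKM in NC. In 0 h p.r. it was at 17.7, 3.31, 2.83 and 2.40 FPKM. Post-run replicate 1 was above every control, and the other post-run libraries were below every control, though replicate 2 lay close to NC replicate 1. The log2 fold change was -0.51 (95% confidence interval -1.83 to 0.80, adjusted p = 0.670), and it was -1.13 when post-run replicate 1 was left out. The log2 ratio of Ucp3 to its neighbour Ucp2 averaged -3.63 ± 0.68 at rest, against -3.30 ± 1.31 after running, and did not differ beyond this spread (exact permutation p = 0.857). Of 4 other mitochondrial carriers tested, 0 were called in limma, 0 had an unadjusted p under 0.05 and 0 were called by voom. The largest changes were 0.16 for the adenine nucleotide carrier Slc25a4 and 0.11 for Slc25a14.

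Because muscle RNA varied widely, each member was also set against the skeletal muscle marker mean over the 8 libraries. Ucp3 had Pearson r = 0.79 and Spearman rho = 0.83, Cpt1b had r = 0.85 and rho = 0.57, and Pdk2 had r = 0.83 and rho = 0.74. Their unadjusted exact permutation p for r was 0.00615, 0.0178 and 0.0190. None of the 10 members passed after adjustment over the 10, for r (smallest 0.0615) or for rho (smallest 0.154). Ppargc1a had r = 0.40, Irs2 had r = 0.03 and Ucp2 had r = -0.18. Without the libraries farthest from the median, 0 h p.r. replicates 1 and 4, r was 0.59 for Ucp3, -0.05 for Cpt1b and 0.17 for Pdk2. The relations of Cpt1b and Pdk2 thus rested on those 2 libraries. That of Ucp3 did not pass on the 6 libraries left (exact permutation p = 0.208, adjusted 0.972).

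**Figure D4:**
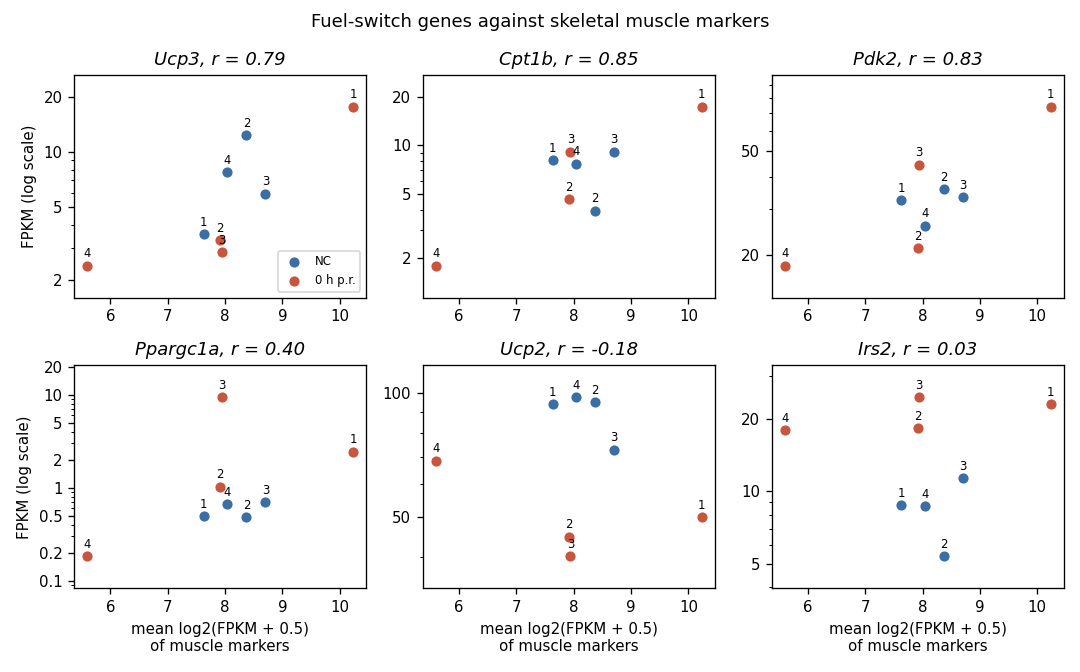
FPKM (log scale) of 6 of the genes against the mean log2(FPKM + 0.5) of 15 skeletal muscle markers in each library, NC blue and 0 h p.r. red, numbered by replicate, with Pearson r over 8 libraries. Replicates 1 and 4 of 0 h p.r. are the extremes on the horizontal axis, and all 4 red points of Irs2 lie above its blue points.

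By level in resting tendon, on the FPKM scale, the order was Ucp2 (mean 89.9), Pdk4 (67.3), Acadm (52.7), Angptl4 (44.0), Pdk2 (31.8), Cpt1a (12.1), Irs2 (8.53), Ucp3 (7.41), Cpt1b (7.23) and Ppargc1a (0.583). The ranges of neighbours in this order overlapped, except between Pdk2 and Cpt1a and between Cpt1b and Ppargc1a. After running, Irs2 stood above Cpt1a in every library and Pdk4 stood below Acadm in every library, whereas at rest Irs2 was below Cpt1a in 3 of 4 and Pdk4 was above Acadm in 4 of 4. Pdk4 was thus the second most abundant member at rest, and Ppargc1a lay near the filter of 0.5 FPKM.

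The time of death was a further difference between the groups. The labels say that both groups were killed immediately, while the methods place the death of the controls of the single-run study with the 12 h p.r. group, so the hour of death and running cannot be told apart. Of 14 clock genes, 3 were called (2 by voom, without Ciart), all higher after running, namely Ciart (0.731 ± 0.411 to 6.33 ± 3.62 FPKM), Bhlhe41 (4.98 ± 0.962 to 10.6 ± 2.46 FPKM) and Nfil3 (23.1 ± 3.76 to 50.6 ± 9.27 FPKM). Arntl and Dbp, the opposed poles of the clock, did not pass, at log2 fold changes of 0.07 and -0.18. Their part in the values of Irs2, Ucp2 and the other members was not tested.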

How the data were processed

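Polyadenylated RNA of 8 tendons was sequenced as stranded libraries. Per the submitters' notes, the authors used HISAT2 2.1.0, featureCounts 1.6.3 and DESeq2 1.30.1 with the rat build Rnor_6.0. The deposited table held FPKM values per library, which the authors also scaled between libraries. Its columns of log2 fold change and p-value were the authors' own comparison and were not used. The table gave no positions.

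Values were transformed to log2(FPKM + 0.5), which understates changes of low genes. Testing covered the 13863 genes that reached 0.5 FPKM in 4 or more libraries, and was done with limma 3.58.1 in R 4.3.3 (lmFit, eBayes with a trend, no covariate, two-sided), with Benjamini-Hochberg adjustment over all of them. Calls required an adjusted p below 0.05 together with a fold of 2 or more. The limma fit and the recovery of reads described below were tested on simulated data. Ratios of members and correlations were tested by exact permutation in Python 3.11.15.

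Whole reads were recovered from the steps between a gene's FPKM values, within a tolerance of 0.02 reads, for 15590 of 15590 genes (100%). The reads gave the depth per library, 11350560 to 17897056, and the input of limma's voom, which called 418 genes against 374 in limma on FPKM. No libraries of a group were near copies.

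The members and the gene lists were chosen with earlier results of these data known. All members were named, and from each list the genes called or, where fewer than 2 were called, those with the largest changes up to 2. One gene that this rule would name is not reported here. Adipocyte, macrophage, endothelial and clock markers were named beside the results they touch. Genes of the lists without a row in the table were not analysed here. Alternatives were other pseudocounts (0.1 and 1), filters, quantile and equal-total scaling, array weights, a replicate block, the muscle marker mean as a covariate, voom, and leaving out each library. The adipocyte covariate was added after seeing the data. Promoters came from RefSeq (GRCr8), a build other than the authors'.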

Additional observations from a re-analysis of the deposited data

Results flagged for a closer look

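In a group of 4 libraries, the gap from an extreme library to its nearest neighbour was compared with the group's range, and a ratio above Dixon's 95% critical value was noted. With 24 genes and both groups, 48 sets were checked, and chance notes about 1 in 20. Ucp2 in NC replicate 3 (72.8 FPKM) lay below the other controls, at a ratio of 0.848. Ucp3 in 0 h p.r. replicate 1 (17.7 FPKM), the library richest in muscle markers, lay far above the other post-run libraries, at 0.94. Acsl1 and Lpl were both highest in NC replicate 1, the library with the highest adipocyte marker sum, at ratios of 0.842 and 0.83. Sik1 was lowest among controls in NC replicate 2 (3.14 FPKM), at 0.915.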

How the results depend on the processing

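Over all tested genes, 374 were called in the fit reported. The count was 171 with libraries at an equal FPKM total, 793 by adjusted p alone, 0 with the adipocyte marker mean as a covariate, and 195 to 516 when 1 library was left out. Among the members, 1 was called in the fit reported, 0 at an equal FPKM total, 0 with the adipocyte covariate, 2 by adjusted p alone and 1 in each fit that left out a library. The FPKM totals ran from 554130 in NC replicate 4 to 900138 in NC replicate 2, which also had the lowest Irs2 (5.37 FPKM). At an equal total the SE of the Irs2 log2 fold change was 0.31, against 0.21 in the fit reported. Why the equal total ends the call of Irs2 was not tested. The adipocyte covariate separates the groups without overlap, which leaves little of the group difference to test.

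The replicate numbers did not pair the libraries, since deviations of same-numbered libraries correlated at -0.14 to 0.07 and 0 of 4 post-run libraries correlated best with its own number. With the replicate block, 212 genes and 1 member (Irs2, adjusted p = 0.0229) were called, while the adjusted p was 0.0527 for Ucp2, 0.1001 for Pprc1 and 0.114 for Lpl.

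Some members changed sign. With the adipocyte covariate the log2 fold change was -0.60 for Ppargc1a, -1.08 for Pdk2, 0.64 for Angptl4 and 0.0234 for Cpt1a, and for listed genes -0.40 for Pdpr, -3.07 for Prkag3, -2.16 for Prkaa2, 0.0206 for Lpl and -1.40 for Slc25a4. It was -0.0006 for Pdk2 under quantile scaling, 0.10 for Angptl4 with array weights and 0.0146 for Cpt1b with the muscle covariate. Leaving out 1 library gave -0.29 to 0.38 for Pdk2, -0.32 to 0.19 for Angptl4, -0.61 to 0.37 for Cpt1b, -0.22 to 0.12 for Acadm and -0.25 to 0.54 for Slc25a4. Log2 ratios differed by -0.29 to 0.75 for Ucp3 to Ucp2 and by -0.26 to 0.96 for Cpt1b to Cpt1a over those fits. Without the 2 libraries farthest from the median of muscle markers, r was -0.20 for Ppargc1a, 0.16 for Ucp2, 0.03 for Cpt1a, -0.0509 for Cpt1b and -0.27 for Irs2. The 9 reads of Ppargc1a in 0 h p.r. replicate 4 limit the precision of its lowest value. Of 189 alternative fits of members, 159 kept direction and side of the adjusted p threshold.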
